A study of Drosophila melanogaster with 16 samples.

Results

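The Iroquois genes mirr (mirror), caup (caupolican) and ara (araucan) encode homeodomain transcription factors of the TALE class, and they are described here in Drosophila melanogaster embryos with lowered clamp RNA. They were taken by symbol, and all 3 were found among the 15682 genes of each deposited table. They were picked because they had been seen among the large falls of these same tables. Their differences between conditions are therefore a description, and nothing is tested with them.

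Iroquois proteins bind DNA through a homeodomain, and in the fly they set up territories such as the dorsal eye and the notum. ara and caup switch on proneural genes in the wing disc, and mirr acts in the eye, in the embryonic epidermis and in the follicle cells of the ovary. The genes lie next to each other on chromosome arm 3L as the Iroquois complex. In the embryo their RNA comes mainly from the zygotic genome.

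RNA of embryos of both sexes was sequenced from 16 samples in 4 groups of 4. The clamp RNAi mothers carried P{COG-Gal4:VP16} over a y[1] sc[*] v[1] chromosome, P{Gal4-nos.NGT}40 over a plain one, and P{nos-Gal4-VP16} over the hairpin insertion P{TRiP.GLC01858}attP2. The MTD control mothers carried the same 3 Gal4 insertions and no hairpin, so the control is the driver line itself. The drivers act in the mother's germline, the mothers were virgin females mated to yw males, and the embryos of each genotype were collected at 0-2 hr and at 2-4 hr. The deposited tables set a condition B against a condition A at each time, and no header or label says which genotype a letter stands for.

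Condition B is the one with less RNA of Clamp, the target of the hairpin. In the authors' deposited table Clamp had a log2 of B over A of -6.04 at 0-2 hr and -5.28 at 2-4 hr, which is 66.0-fold and 38.8-fold lower in B. The letters are kept below, since a Clamp level is not a genotype label. Levels are means of normalized reads over both conditions, and the depth and the spread of single libraries are not used here.

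Of the A libraries, 1 at each time held much late-embryo RNA, and every log2, mean, rank and call below includes it. This was seen in columns that no label ties to a group, so no value of that library and no result without it is given. In the deposited ratios, the late-embryo markers lay mostly below 0 with few calls. The median log2 of B over A of 14 muscle markers was -2.82 at 0-2 hr and -4.56 at 2-4 hr, with 1 and 0 called lower by DESeq and as many at an unadjusted p under 0.05, in the authors' deposited table. Of 12 neuron markers 1 and 2 were called lower, and the medians were -2.53 and -1.61, in the authors' deposited table. The muscle gene called at 0-2 hr was Tm1, with a mean of 8190 and a log2 of -0.34. The neuron gene called there was Csp, with a mean of 4155 and a log2 of -0.29. At 2-4 hr the called neuron genes were elav at -1.06 and nrv2 at -2.98. Among 14 markers of epidermis, gut and trachea 1 was called lower at each time and 1, LamC, higher at 0-2 hr, and the medians were -3.17 and -3.86, in the authors' deposited table. As shares called lower these are 7.14% and 0% for muscle, 8.33% and 16.7% for neurons and 7.14% at both times for the third list, beside 5.61% and 8.14% of all tested genes. The part of that RNA in the Iroquois differences was not tested.

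mirr was the most abundant of the 3 genes and the 1 that the authors' test called at both times. In the authors' deposited table mirr had a mean of 47.0 normalized reads and a log2 of B over A of -4.10 at 0-2 hr, 17.2-fold lower in B with the late-rich A library included. At 2-4 hr its mean was 141 and its log2 -2.78, 6.89-fold lower in B, in the authors' deposited table. Ordered by log2 among the called genes whose mean reached 20, mirr took place 7 of 726 falls at 0-2 hr and place 22 of 1142 at 2-4 hr. Among all tested genes with such a mean, called or not, 62 of 7036 had a lower log2 than mirr at 0-2 hr. At 2-4 hr 128 of 7398 did.

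caup was lower in level and similar in difference. In the authors' deposited table caup had a mean of 17.0 and a log2 of -3.90 at 0-2 hr, 14.9-fold lower in B. At 2-4 hr the authors' deposited table gave it a mean of 43.3 and a log2 of -3.39, 10.5-fold lower in B. Called at 2-4 hr but not at 0-2 hr, caup took place 8 of the 1142 called falls at 2-4 hr, ahead of mirr. Among all tested genes with a mean of at least 20, called or not, 83 of 7398 had a lower log2 than caup there.

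ara was hardly detected. Its mean was 2.24 normalized reads at 0-2 hr and 7.36 at 2-4 hr in the authors' deposited table, so each of its ratios rests on few reads. The authors' deposited table gave it a log2 of -4.41 at 0-2 hr and of -2.93 at 2-4 hr, 21.2-fold and 7.62-fold lower in B. The authors' test called ara at neither time. In these bulk samples, fewer cells that make a given RNA and less of it per cell cannot be told apart.

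**Figure D1:**
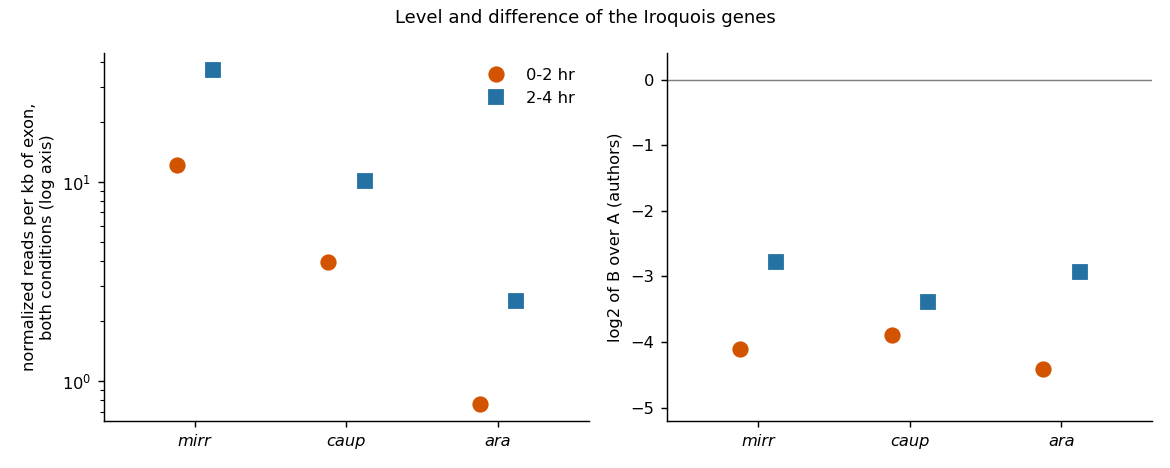
Left, mean normalized reads per kilobase of exon over both conditions (log axis) of mirr, caup and ara at 0-2 hr (circles) and 2-4 hr (squares); right, the authors' log2 of condition B over condition A, with a line at 0. The level falls from mirr to ara at both times, while the 6 log2 values lie between -4.41 and -2.78, each gene further below 0 at 0-2 hr.

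The calls stood as follows. At an adjusted p under 0.05, DESeq called 1 of the 3 lower in B at 0-2 hr in the authors' deposited table, where 5.61% of 13096 tested genes were called lower and 5.56% higher. The 2-4 hr test called 2 of the 3, where 8.14% of 14245 tested genes were called lower and 7.38% higher, in the authors' deposited table. Nothing is read from these counts, because the 3 genes were picked from this contrast. The DESeq adjusted p in the authors' deposited table was 0.0460 for mirr, 0.106 for caup and 0.558 for ara at 0-2 hr.

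At 2-4 hr the DESeq adjusted p in the authors' deposited table was 0.00117 for mirr, 0.0295 for caup and 0.488 for ara. At an adjusted p under 0.01 none of the 3 was called at 0-2 hr and mirr alone at 2-4 hr, beside 3.64% and 5.97% of all tested genes called lower. At an unadjusted p under 0.05, mirr and caup passed at both times. Of all tested genes, 10.2% at 0-2 hr and 11.9% at 2-4 hr were lower in B at that p. Of the 3, caup at 0-2 hr was the closest to the threshold from outside and mirr at 0-2 hr the closest from inside.

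Per kilobase of exon, the order was mirr, caup, ara at both times. In the BDGP6 annotation the exons span 3.892 kb in mirr, 4.317 kb in caup and 2.942 kb in ara. At 0-2 hr the level was 12.1 normalized reads per kilobase for mirr, 3.94 for caup and 0.763 for ara. At 2-4 hr it was 36.4 for mirr, 10.03 for caup and 2.50 for ara. Per kilobase, mirr stood 3.06-fold above caup at 0-2 hr and 3.62-fold at 2-4 hr, and caup stood 5.17-fold above ara at 0-2 hr and 4.01-fold at 2-4 hr. Whether neighbours in this order differ beyond the spread between libraries was not tested.

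The mix of the 3 genes was alike at the 2 times. mirr made up 70.9% of their summed reads at 0-2 hr and 73.6% at 2-4 hr. caup made up 25.7% and 22.5%, and ara 3.39% and 3.83%. The sum itself was 66.2 normalized reads at 0-2 hr and 192 at 2-4 hr. The tables were normalized separately, so these levels stand side by side without a test. For all 3 genes the mean was higher at 2-4 hr and the log2 of B over A nearer to 0.

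The other homeobox genes were mostly lower in B as well. This list held 73 genes, of which 71 were in the tables. At 0-2 hr DESeq called 5 of 70 tested lower and none higher in the authors' deposited table, 7.14% against 5.61% of all genes. An unadjusted p under 0.05 was reached by 22 of the 70, all lower in B. Of all tested genes, 10.2% were lower at that p. Of the 70, 66 had a log2 below 0, with a median of -2.12 against -0.10 over all tested genes. The 2-4 hr test called 27 of 71 lower and none higher in the authors' deposited table, 38.0% against 8.14% of all genes. There 68 of the 71 had a log2 below 0, with a median of -1.41 against -0.04 over all tested genes.

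Within the homeobox list the Iroquois genes lay near the low end. As they were picked for large falls, low ranks were set in advance and nothing is read from them. At 0-2 hr 7 of the 70 had a lower log2 than mirr, 9 a lower one than caup and 5 a lower one than ara. At 2-4 hr 9 of the 71 lay below mirr, 3 below caup and 8 below ara. Of the 70, 9 had a higher mean than mirr at 0-2 hr, and of the 71, 15 did at 2-4 hr. These means were not divided by exon length, so they do not rank the homeobox RNAs by abundance.

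The homeobox genes with the smallest adjusted p at 2-4 hr were tup, Antp, zfh1 and ftz. tup, a LIM homeobox gene of the dorsal ectoderm and amnioserosa, stood at a log2 of -2.52, with a DESeq adjusted p of 3.86e-13 in the authors' deposited table. Antp, a Hox gene of the thorax, had a log2 of -2.48 there, with an adjusted p of 1.78e-12 in the authors' deposited table. Both fell by about as much as mirr, at -2.78, and had means of 103 and 185. zfh1, a zinc finger homeobox gene of the mesoderm, fell by less, with a log2 of -0.83 in the authors' deposited table. ftz, a pair-rule gene, had -1.11 in the authors' deposited table.

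At 0-2 hr the smallest adjusted p in the homeobox list were those of ey and cad. ey, an eye selector gene, had a mean of 21.0 and a log2 of -2.91 in the authors' deposited table, with an adjusted p of 0.000907 by DESeq. cad, a gene of the posterior embryo with maternal RNA, had a mean of 8687 and a log2 of -0.32 in the authors' deposited table. Abd-B, a Hox gene of the posterior abdomen, lay closest to mirr among the called ones, with a mean of 39.9 and a log2 of -3.94 in the authors' deposited table; it was named after its values were seen.

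**Figure D2:**
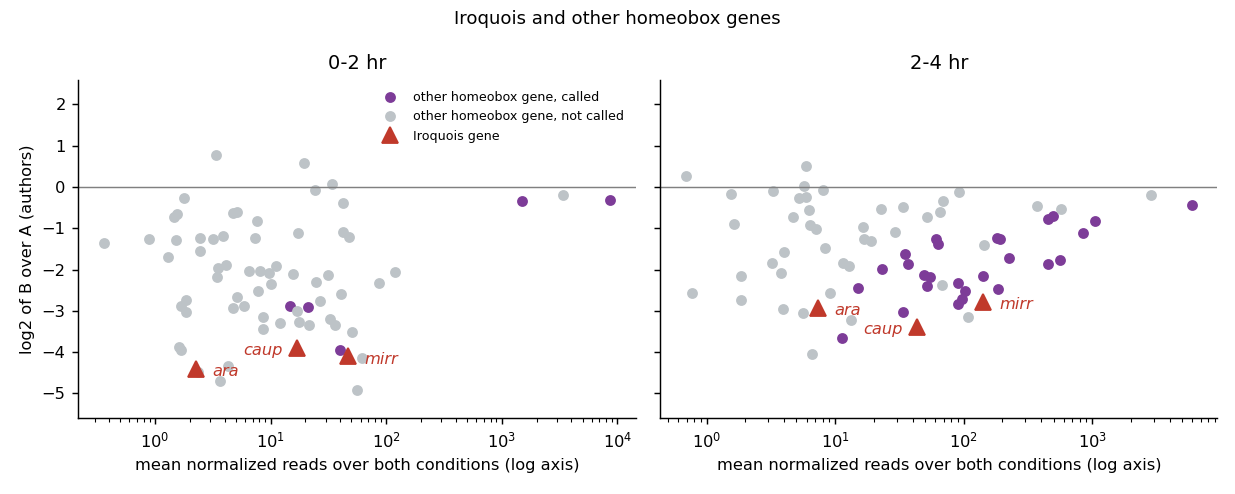
The authors' log2 of B over A (vertical axis) against the mean normalized reads over both conditions (horizontal, log axis) for the Iroquois genes (triangles) and the other homeobox genes (circles, dark where called at an adjusted p under 0.05), at 0-2 hr and 2-4 hr. Genes listed at 0 in a condition are left out; most circles lie below 0, and the triangles lie near the lower edge, with mirr at -4.10 at 0-2 hr and -2.78 at 2-4 hr.

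The other TALE genes gave 1 call, hth. hth and exd encode partners of Hox proteins, and achi and vis are neighbouring copies of a TGIF-class gene, so their reads may be hard to tell apart. At 0-2 hr DESeq called 0 of the 4 in the authors' deposited table, beside 5.61% of all genes called lower. Only hth had an unadjusted p under 0.05, beside 10.2% of all tested genes lower at that p. At 2-4 hr DESeq called hth lower, 25% of the 4 beside 8.14% of all genes. There hth had a mean of 2214, a log2 of -1.82 and a DESeq adjusted p of 4.78e-09 in the authors' deposited table. At 0-2 hr hth had a log2 of -2.34 with a DESeq adjusted p of 0.178 in the authors' deposited table.

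The remaining TALE genes were near 0. exd had a log2 of -0.14 at 0-2 hr and -0.02 at 2-4 hr in the authors' deposited table. achi had -0.40 and -0.12 there, and vis -0.10 and 0.06, in the authors' deposited table. The median of the 4 was -0.27 at 0-2 hr and -0.07 at 2-4 hr. Whether these genes differ from the Iroquois genes was not tested.

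Of genes that act upstream of the complex in fly tissues, a share close to that of all genes was called lower at 0-2 hr and a larger one at 2-4 hr. The list held 33 genes of the BMP, Hedgehog, Wingless, EGF receptor and JAK/STAT pathways, with GATA factors and ush, and 31 were in the tables. DESeq called 2 of the 31 lower and 1 higher at 0-2 hr in the authors' deposited table, 6.45% and 3.23% against 5.61% and 5.56% of all genes, with a median log2 of -0.23. At 2-4 hr it called 15 lower and 1 higher in the authors' deposited table, 48.4% lower against 8.14% of all genes, with a median of -0.40. Most of these upstream genes had a mean of at least 20. Of all tested genes with such a mean, 726 of 7036 were called lower at 0-2 hr and 1142 of 7398 at 2-4 hr. Both shares are larger than those over all tested genes. Whether the times differ in the upstream calls was not tested.

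At 2-4 hr the smallest adjusted p in that list belonged to Egfr, ush, grn and cic. Egfr, the fly EGF receptor, had a log2 of -1.66 with an adjusted p of 2.25e-14 by DESeq in the authors' deposited table. ush, a cofactor of GATA factors, had -1.82, and grn, a GATA factor, had -2.33, in the authors' deposited table. cic, a repressor that EGF receptor signalling relieves, had -0.52 in the authors' deposited table. The 1 called higher was Mad, the transcription factor of the BMP pathway, at 0.31 in the authors' deposited table.

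At 0-2 hr the named upstream genes went opposite ways. pnt, an ETS factor downstream of the EGF receptor, was higher in B at a log2 of 1.07, with a DESeq adjusted p of 0.000151 in the authors' deposited table. vn, a ligand of that receptor, was lower at a log2 of -1.42, with a DESeq adjusted p of 0.00207 in the authors' deposited table. At 2-4 hr pnr, a GATA factor that acts on ara and caup in the notum, was called at a log2 of -2.72 in the authors' deposited table. It was not called at 0-2 hr, with a log2 of -3.64 and a DESeq adjusted p of 0.0617 in the authors' deposited table. Whether pnr bears on the Iroquois differences was not tested. pnr was named after its values were seen.

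Among targets and partners of Iroquois proteins, calls were made at 2-4 hr. The list held 15 genes with proneural genes, Notch pathway genes and corepressors, and 13 were in the tables. At 0-2 hr DESeq called 0 of the 13 in the authors' deposited table, beside 5.61% of all genes called lower, with a median log2 of -1.34. An unadjusted p under 0.05 was reached by 2, both lower in B, beside 10.2% of all tested genes lower at that p. The 2-4 hr test called 3 lower and none higher in the authors' deposited table, 23.1% lower against 8.14% of all genes, with a median of -0.83. They were N, the Notch receptor, at a log2 of -1.16, mid, a T-box gene, at -2.61, and emc, an antagonist of proneural proteins, at -0.49, in the authors' deposited table.

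From the same list, fng, pip, sc and ac, which respond to Iroquois proteins in other fly tissues, were not called at either time. N, mid and emc were called at 2-4 hr, as given above. fng, which modifies Notch and is set by mirr in the eye and the ovary, had a mean of 9.07 at 2-4 hr, with a log2 of -3.47 and a DESeq adjusted p of 0.474 in the authors' deposited table. pip, which mirr represses in follicle cells, had a log2 of -3.33 and a DESeq adjusted p of 0.595 there, in the authors' deposited table. sc and ac, the proneural genes that ara and caup switch on in the wing disc, had log2 values of 0.09 and -0.61 at 2-4 hr, with DESeq adjusted p of 0.923 and 0.0882 in the authors' deposited table. The genes fng, pip, sc and ac were named after their values were seen.

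**Figure D3:**
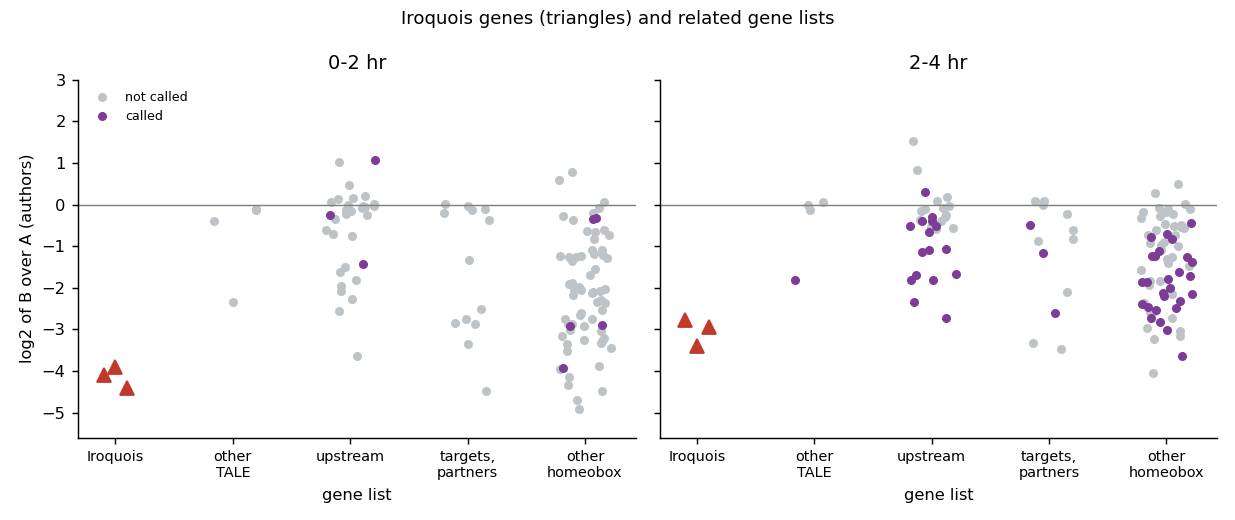
The authors' log2 of B over A (vertical axis) for the Iroquois genes (triangles) and 4 lists of related genes (circles, dark where called at an adjusted p under 0.05; sideways spread has no meaning), at 0-2 hr and 2-4 hr. Genes listed at 0 in a condition are left out; more circles are dark at 2-4 hr, with 27 in the other homeobox list and 16 in the upstream list.

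Of the other marker lists, those of yolk and amnioserosa and of pole cells gave calls in both directions. Of 8 hemocyte markers 0 and 1 were called lower, and the medians were -3.27 and -0.92, in the authors' deposited table. An unadjusted p under 0.05 was reached by Hml, higher in B, at 0-2 hr and by srp, lower in B, at 2-4 hr. Among 9 genes of yolk and amnioserosa, among them tup and ush, 1 was called lower at 0-2 hr and 6 lower and 1 higher at 2-4 hr, with medians of -0.76 and -1.82, in the authors' deposited table. Among 7 pole cell markers 1 was called higher at 0-2 hr, and 3 lower and 1 higher at 2-4 hr, with medians of 0.07 and -0.31, in the authors' deposited table. None of 12 follicle cell and eggshell genes was called by DESeq in the authors' deposited table, with medians of -0.63 and -0.35. An unadjusted p under 0.05 was reached by 2, both higher in B, at 0-2 hr and by 0 at 2-4 hr. The shares called lower at 2-4 hr were 12.5% for hemocytes, 66.7% for yolk and amnioserosa and 42.9% for pole cells, beside 8.14% of all genes. At 0-2 hr they were 0%, 11.1% and 0%, beside 5.61%, and the part of these cells in the Iroquois differences was not tested.

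The genes around the complex with a mean of at least 20 did not reach differences of the size seen for the Iroquois genes. The means of ara at both times and of caup at 0-2 hr were themselves under 20. The Iroquois genes were picked for large falls, so nothing is read from this contrast. In the BDGP6 annotation ara and caup are direct neighbours, 4 non-coding genes lie between caup and mirr, and all 3 Iroquois genes are on the plus strand with no gene overlapping them. Of the 24 nearest genes, 10 on each side and 4 inside, 22 were in the tables. DESeq called 1 of the 22 lower and 3 higher at 0-2 hr in the authors' deposited table, 4.55% and 13.6% against 5.61% and 5.56% of all genes, with a median log2 of -0.07. At 2-4 hr it called 0 lower and 3 higher in the authors' deposited table, 0% and 13.6% against 8.14% and 7.38% of all genes, with 0 lower at an adjusted p under 0.1, 2 lower at an unadjusted p under 0.05 and a median of 0.18. At an adjusted p under 0.1, 7% of all tested genes were lower at 0-2 hr and 9.66% at 2-4 hr. At an unadjusted p under 0.05, 11.9% of all tested genes were lower at 2-4 hr.

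Among the 18 neighbours with a mean of at least 20, the log2 of B over A ran between -0.55 and 0.73 at 0-2 hr and between -0.32 and 0.67 at 2-4 hr. Under that mean, lncRNA:CR43612, lncRNA:CR32111, lncRNA:CR43431 and CG32106 were listed at 0 in B at 0-2 hr, with means of 0.632 or lower. At 2-4 hr their log2 values ran between -3.87 and 1.42, and none was called. SmD1, an snRNP gene and the next one beyond mirr, stood at -0.19 at 0-2 hr and 0.23 at 2-4 hr in the authors' deposited table. sowah, the nearest coding gene on the side of ara, had -0.04 and -0.23 in the authors' deposited table. SmD1 and sowah were named after their values were seen.

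The called neighbours lay farther out. Gcn5, a histone acetyltransferase, was higher in B, with a log2 of 0.73 at 0-2 hr and 0.59 at 2-4 hr in the authors' deposited table. eIF2beta, a translation initiation factor, was higher too, at 0.30 and 0.39 in the authors' deposited table. Vps13D was higher at 0-2 hr at 0.50, and nst was lower at -0.31, in the authors' deposited table. ver, a telomere capping gene, was higher at 2-4 hr at 0.67 in the authors' deposited table.

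Of the non-coding genes, 2 inside the complex were in the tables, both with a few reads. At 2-4 hr lncRNA:CR43431 had a mean of 2.17 and a log2 of -3.87, and lncRNA:CR32111 a mean of 4.37 and a log2 of 1.42, in the authors' deposited table. Neither was called, with DESeq adjusted p of 0.326 and 0.720 in the authors' deposited table. The non-coding genes lncRNA:CR44553 and lncRNA:CR44552 were not analysed here.

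**Figure D4:**
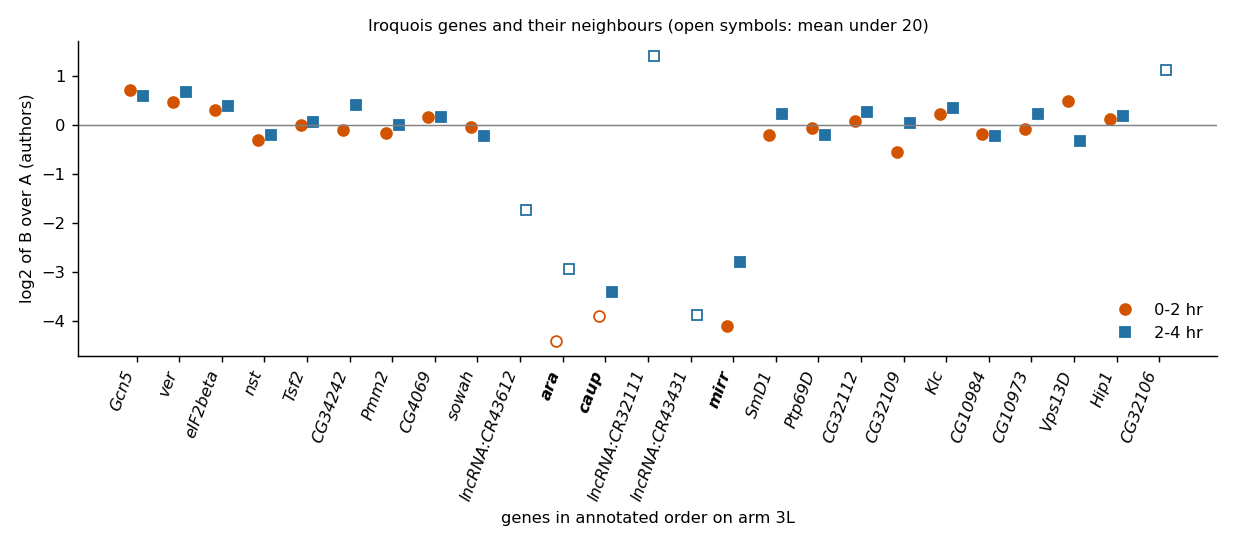
The authors' log2 of B over A (vertical axis) for the 3 Iroquois genes (bold) and the genes around them, in annotated order on arm 3L (horizontal, not to scale), at 0-2 hr (circles) and 2-4 hr (squares); open symbols have a mean under 20, and genes listed at 0 in a condition have no symbol. ara, caup and mirr lie between -4.41 and -2.78, and neighbours with a mean of at least 20 between -0.55 and 0.73.

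The genes with the pattern most like each Iroquois gene were found by the log2 of B over A at both times. Likeness was the Euclidean distance over these 2 values, among 7425 other genes with a mean of at least 10 in both tables (7426 for ara, whose own mean is lower). The closest to mirr were CG14629 at 0.0577, fne at 0.148, FBgn0002528 at 0.208, CG14879 at 0.259 and elB at 0.374. fne, a neuronal RNA-binding protein gene, is itself one of the neuron markers above. Of these 5, CG14879 alone was called at both times in the authors' deposited table, at log2 values of -3.88 and -2.65.

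For caup the closest were CG43332 at 0.0497, ft at 0.124, CG31140 at 0.211, CG15282 at 0.283 and FBgn0263416 at 0.340. ft, the gene of the Fat cadherin, was called at both times in the authors' deposited table, at -3.80 and -3.46. For ara they were GstD3 at 0.158, snu at 0.233, CG14629 at 0.289, CG12017 at 0.295 and stan at 0.334. GstD3, a glutathione S-transferase, was called at both times in the authors' deposited table, at -4.56 and -2.91, while ara was not called. ara itself, under that mean, was not a candidate for mirr or caup.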

How the data were processed

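Libraries came from Trizol RNA by a NuGEN Ovation kit after removal of ribosomal RNA, per the labels' protocols. The submitters' processing notes name dm3, DESeq, HTSeq 0.5.4p3 and TopHat2 2.0.13 without roles. The authors deposited 2 tables that hold, per the file headers, a signal (a normalized read count averaged over A and B together), the ratio or fold of B over A, its log2, and a p-value with its adjusted form. The strand setting of the counting was not stated.

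In all, 4 columns with the mean of A or of B alone were not used, since neither header nor label ties them to a group. Reads per library can be worked out from those columns, and this had been done and its values seen before it was left out. None of those values is given, and only the remark on a late-rich A library comes from them. At each time 1 of the A libraries held much late-embryo RNA, and all deposited means, folds and calls include it. Depth and spread per library are not given here, and neither is an interval or a detection limit. Levels per condition and per library, time changes within a condition and the third value of the likeness measure, all planned, are not given.

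No test of differential expression was run. Calls are the authors', at an adjusted p under 0.05 unless another threshold is named. As separate crosses are not stated, p-values reflect only how much these libraries vary. The genes and lists were chosen with earlier results of these data known. Named are, in each pathway list, the called genes with the 4 smallest adjusted p at 2-4 hr and the 2 smallest at 0-2 hr, called neighbours, neighbours inside the complex, and the 5 closest genes in pattern. Others, among them Mad, were named after their values were seen. Of 15682 IDs 15002 had a symbol in the gene name table, and list symbols without an ID were left out. BDGP6 gave gene order and exon length; no coordinates are printed, since the builds differ, and no sequences were used. Python 3.11.15, numpy 2.4.6, pandas 2.3.3 and matplotlib 3.10.9 were used.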

Additional observations from a re-analysis of the deposited data

How the results depend on the processing

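No paired analysis was possible because the columns used carry no replicate numbers. Centred on the median log2 of genes with a mean of at least 20, the 6 log2 values of the Iroquois genes moved by under 0.01. Of the 3 genes, 1 was called at 0-2 hr, 0 at an adjusted p under 0.01 and 2 at an unadjusted p under 0.05; 2 were called at 2-4 hr and 1 at an adjusted p under 0.01. At 0-2 hr an adjusted p under 0.1 gave 6 upstream genes in place of 2, 10 other homeobox genes in place of 5 and 2 neighbours in place of 1 called lower. There an adjusted p under 0.01 gave 2 other homeobox genes, and 5 neighbours on either side gave 0 called lower. Only the threshold or the number of neighbours was changed in these settings. For the 4 pathway lists and the neighbours, the other counts called lower stayed within 1.5 times; the marker lists were not run at other thresholds. Not run, for want of usable columns, were the scaling by sums, the pseudocounts, the libraries left out in turn and the replicate block. The low means of ara, 2.24 and 7.36, limit its ratios.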
